A study of Mus musculus with 2 samples.

Results

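Cyp11a1 encodes the cholesterol side-chain cleavage enzyme, a cytochrome P450 of the inner mitochondrial membrane. It turns cholesterol into pregnenolone, the first step of all steroid hormone synthesis, and in the adrenal gland it is known as a gene of the steroid-making cortex. Most mammalian genes are transcribed with introns that are spliced out before the RNA leaves the nucleus. An RNA can keep an intron, leave out an exon or use a shifted splice site, and a long read that spans several junctions shows which of these happened on the same molecule.

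The gene was followed here through all of its long-read transcript models, that is, every model the deposited tables assign to Cyp11a1, whatever its class. There were 119 such models in replicate 1 and 82 in replicate 2, of 62971 and 67032 endogenous models, and Cyp11a1 is 1 of 15683 annotated genes with reads. The gene was selected on measured values, its read total and its share of Genomic reads in these same libraries. Both libraries were made from total RNA of whole adrenal gland, taken at 36 days of age from males of B6CASTF1/J, a first-generation cross of C57BL/6J with CAST/EiJ, and the labels name no engineered allele and no treatment. The study has 1 group with 2 libraries, so no condition is compared. The labels disagree on whether 1 animal or different animals were used, so the SDs below measure only the spread between these libraries, which could be technical. The p-values below measure counting error with reads taken as independent, and hold no estimate of that spread.

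Replicate 1 held 452437 endogenous reads and replicate 2 held 463102. Levels are given in CPM, counts scaled to the endogenous total, on which 1 read weighed 2.21 CPM in replicate 1 and 2.16 CPM in replicate 2. All 5 adrenal cortex markers had reads in both libraries and summed to 31991 and 24258 CPM. The 5 markers of chromaffin cells, the catecholamine-making cells of the medulla, all had reads too and summed to 10479 and 15403 CPM. The 10 pancreas acinar markers summed to 79.6 CPM in replicate 1 against 7052 CPM in replicate 2, with 2 and 10 of them seen. The 6 liver markers summed to 6.63 and 514 CPM, with 2 and 6 seen. All 3 fat markers had reads in both libraries and summed to 2469 CPM in replicate 1 and 2889 CPM in replicate 2. In bulk tissue, fewer cortical cells and less Cyp11a1 RNA per cell cannot be told apart.

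TALON, the program whose columns the tables carry, sorts reads into classes. A Known read follows every junction of an annotated transcript, and an incomplete splice match (ISM) follows a part of one. NIC reads use known splice sites in an unannotated combination, and NNC reads include an unannotated splice site. These 3 classes, Known, NIC and NNC, are called full-length below. Genomic reads overlap the gene without matching its junctions.

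Cyp11a1 lies on the plus strand of chromosome 9, from 58006411 to 58027023 in the mm10 genome (GENCODE M21). Of its 4 annotated transcripts, reads were assigned to Cyp11a1-201 alone, with 5327 Known reads in replicate 1 and 4002 in replicate 2. The transcripts Cyp11a1-202, Cyp11a1-203 and Cyp11a1-204 had no Known read in either library, so each was at most at the level of 3 reads, 6.63 CPM in replicate 1 and 6.48 CPM in replicate 2. Cyp11a1-201 runs from 58014671 to 58027023, has 9 exons and 2120 bases, and codes for 526 amino acids.

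The departures from this structure that recurred in both libraries are easiest to see in the sequence of the exons they touch. Exon 3 (chr9:58018194-58018393, plus strand) is a coding exon of 200 bases that some reads skipped. Other reads ended it 2 bases early, and these bases, GT, are in capitals.
exon 3: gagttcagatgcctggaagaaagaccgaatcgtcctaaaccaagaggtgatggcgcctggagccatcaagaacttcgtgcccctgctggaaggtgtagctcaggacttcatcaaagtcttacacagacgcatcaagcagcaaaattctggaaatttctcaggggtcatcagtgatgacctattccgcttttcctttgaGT

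Exon 4 (chr9:58019293-58019496, plus strand) has 204 coding bases. Most reads that ended exon 3 early entered exon 4 106 bases late, and the bases they left out are in capitals. The capitals end in AG, the usual end of an intron, as the GT of exon 3 is the usual start of one.
exon 4: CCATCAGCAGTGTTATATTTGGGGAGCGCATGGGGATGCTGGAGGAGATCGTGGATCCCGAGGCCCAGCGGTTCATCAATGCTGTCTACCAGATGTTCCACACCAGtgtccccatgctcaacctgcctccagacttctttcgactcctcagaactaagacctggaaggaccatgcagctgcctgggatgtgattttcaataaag

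The joins that result are shown as 15 bases on each side, with the bases after the junction in capitals. They are the annotated join of exons 3 and 4, the shifted join, and the joins made when exon 3 or exon 7 was left out. In this order, the last bases before them are 58018393, 58018391, 58016429 and 58025244, and the first bases after them are 58019293, 58019399, 58019293 and 58026085.
exon 3 to exon 4: gcttttcctttgagtCCATCAGCAGTGTTA
shifted exon 3 to exon 4: ccgcttttcctttgaTGTCCCCATGCTCAA
exon 2 to exon 4: tggggtcctgtttaaCCATCAGCAGTGTTA
exon 6 to exon 8: caaggagacactgagACTTTGGTACAGGTG

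At the starts of exon 6 (chr9:58025078-58025107) and exon 8 (chr9:58026085-58026114) some reads entered 18 and 12 bases late. The 2 bases before the later entry point are in capitals in the first 30 bases of each exon, and they are AG in both.
exon 6 start: acctccatgaccctgcAGtggaacctttat
exon 8 start: actttggtacAGgtggctagctttgccatg

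**Figure D1:**
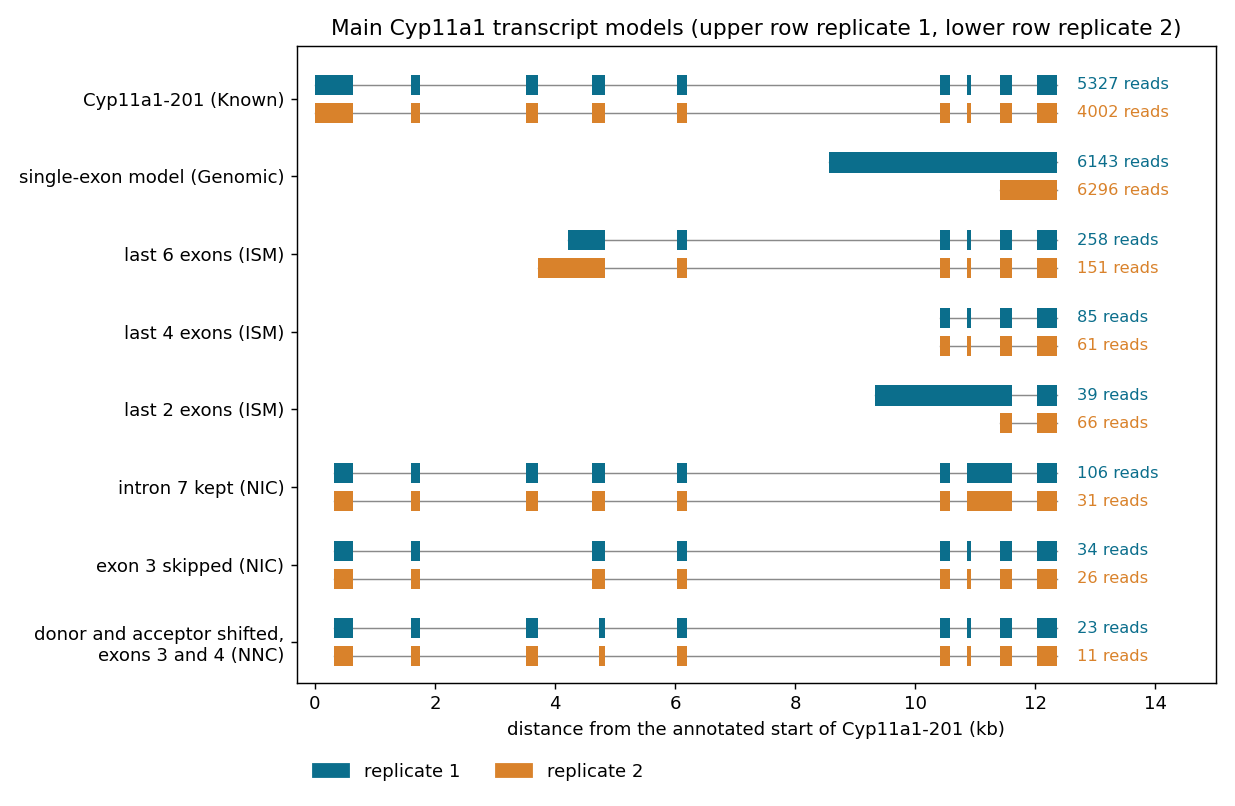
Exons (boxes) and introns (lines) of the main Cyp11a1 models in replicate 1 (upper row of each pair) and replicate 2 (lower row), by distance in kb from the annotated start of Cyp11a1-201, with the reads of each model. The single-exon Genomic model had more reads than Cyp11a1-201 in both libraries, and its drawn start differed between them.

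Cyp11a1 had 12394 reads in replicate 1 and 10862 in replicate 2, or 27394 and 23455 CPM, with a mean of 25424 ± 2785 CPM (SD, n = 2). These values are a description, since the gene was chosen for its reads. It ranked 1 of all annotated genes by total reads in both libraries and 2 by full-length reads. Full-length reads alone gave 12554 CPM in replicate 1 and 9000 CPM in replicate 2, a mean of 10777 ± 2513 CPM (SD, n = 2).

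The reads fell into a class pattern unlike that of the other genes as a whole. Genomic reads made up 49.6% of Cyp11a1 reads in replicate 1 (Wilson 95% interval 48.7 to 50.5) and 58.0% in replicate 2 (57.1 to 58.9), against 3.83% and 4.78% of the reads of all other genes. Known reads made up 43.0% and 36.8%, against 76.5% and 74.1% in the other genes. ISM reads made up 4.59% and 3.63%, NIC reads 2.06% and 0.939%, and NNC reads 0.791% and 0.589%. Each of these 3 classes was also a smaller share than in the other genes, where ISM took 7.98% and 8.56%, NIC 4.11% and 3.41%, and NNC 3.27% and 3.03%. All class shares are parts of 1 total, so the large Genomic share by itself lowers the others. Shares among the reads outside the Genomic class were not compared here. The intervals cover counting error only and treat reads as independent.

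**Figure D2:**
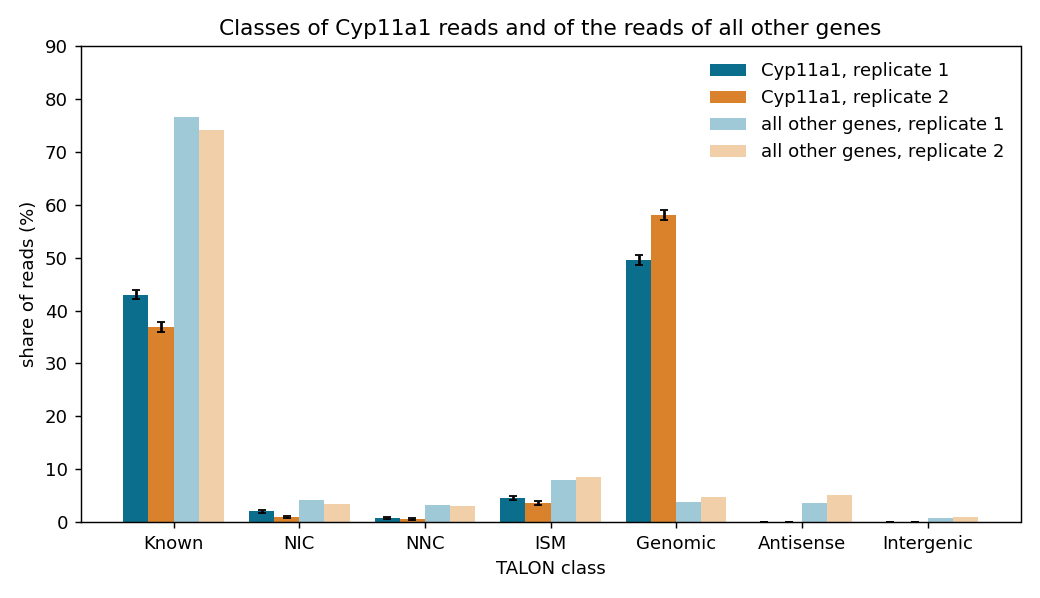
Share of reads in each TALON class (%) for Cyp11a1 (dark bars, with Wilson 95% intervals) and for all other genes together (pale bars), in replicate 1 and replicate 2. Genomic reads were 49.6% and 58.0% for Cyp11a1 and under 5% for the other genes.

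The difference in total between the libraries lay in the spliced reads. Reads with at least 1 junction stood at 13799 CPM in replicate 1 and 9842 CPM in replicate 2, a ratio of 1.40 (exact conditional 95% interval 1.35 to 1.46). Genomic reads stood at 13582 and 13604 CPM, a ratio of 0.998 (0.964 to 1.03). Genomic reads of all other genes together were fewer in replicate 1, at 37247 CPM against 46644 CPM in replicate 2, a ratio of 0.799. Leaving the pancreas and liver marker genes out of the totals gave 27396 and 23634 CPM for Cyp11a1.

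Nearly all Genomic reads of the gene sat in 1 single-exon model per library. It held 6143 of the 6145 Genomic reads in replicate 1 and 6296 of 6300 in replicate 2. In replicate 1 the model covered 3787 bases, from 58023237 within intron 5 to 58027023, with exons 6 to 9 and the whole of introns 6, 7 and 8. In replicate 2 it covered 939 bases, from 58026085, the first base of exon 8, to the same end, with exons 8 and 9 and the whole of intron 8. Both models ended at the annotated 3′ end of the gene. Every other single-exon model had 1 to 4 reads.

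These 2 spans cannot be read as the spans of the reads. The files give 1 start and 1 end per model, and single-exon reads with different ends can share a model. Among genes with at least 100 reads in each library, 63 had a leading Genomic model with a single exon and at least 10 reads in both libraries. The model's length was the same in both libraries for 24 of them and differed at least 2-fold for 27, and it was under 50 bases in at least 1 library for 19. For Cyp11a1 the length differed 4.03-fold. No Cyp11a1 model lay within exon 9 alone, so reads confined to that exon, which would carry no junction and no intron, cannot be told apart from reads that run into intron 8. The name "unspliced" for the Cyp11a1 Genomic reads is therefore not established by the files, and they are called single-exon reads below.

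The class name of single-exon reads also changed between libraries in other genes. Of 698 genes with at least 100 reads in each library, 53 had at least 10% single-exon Genomic reads in either library and 23 in both. In 15 of the 53 the share was at least 10% in 1 library and under 1% in the other, and for 12 of these 15 the library under 1% held at least 10% single-exon ISM reads instead. Gabarapl1, a gene of autophagosome formation, had 45.3% single-exon Genomic and no single-exon ISM reads in replicate 1, and in replicate 2 no Genomic and 55.3% single-exon ISM reads. Star, which brings cholesterol to the enzyme, had 8.69% single-exon ISM and 0.355% single-exon Genomic reads in replicate 1. In replicate 2 it had no single-exon ISM and 11.2% single-exon Genomic reads. These 2 thresholds and both genes were chosen after the values had been seen. For Cyp11a1 the class did not change: single-exon ISM reads were 0.0484% and 0.0368%, and single-exon reads of both classes together were 49.6% and 58.0%.

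Set against the other 697 genes with at least 100 reads in each library, the Cyp11a1 Genomic share ranked 3 in replicate 1 and 2 in replicate 2, and 3 by the mean of both, 53.8%. As the gene was chosen in part for this share, its ranks are a description. The median gene had 0.356% in replicate 1 and 0.516% in replicate 2. By single-exon reads of both classes it ranked 4 and 2, beside medians of 1.46% and 2.35%. Among the 23 genes with at least 1000 reads in each library it ranked 1 in both. By the mean of both libraries the next were Apoe, which carries lipids in lipoproteins, with 21.5% and 25.2%, Kcnk3, a potassium channel of the adrenal cortex, with 13.6% and 18.5%, Hsd3b1, which acts on the pregnenolone that Cyp11a1 makes, with 7.52% and 9.97%, Fads2, a fatty acid desaturase, with 6.16% and 9.91%, and Cyp11b1, which completes corticosterone synthesis, with 4.96% and 7.77%. In replicate 2 alone, Star lay above Hsd3b1, with 11.3%. This order depends on the class name: by single-exon reads of both classes Star had 9.04% and 11.2%, above Hsd3b1 in both libraries. Cyp11a1 alone held 26.7% of all Genomic reads in replicate 1 and 22.6% in replicate 2.

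The 5 genes most like Cyp11a1 in Genomic share, by distance over the 2 libraries, had far fewer reads. Gadd45gip1, which encodes a protein of the mitochondrial ribosome, had 55.5% of 146 reads in replicate 1 and 59.5% of 190 in replicate 2, a distance of 6.08 percentage points. Mrpl30, another mitochondrial ribosome gene, had 60.8% of 125 and 52.3% of 149 reads, a distance of 12.6 points. Polr2l, a small RNA polymerase subunit, Vps37b, of the endosomal sorting machinery, and Ywhaq, a 14-3-3 protein, lay 23.7, 29.7 and 34.6 points away. The choice of these 5 depends on the class name. By single-exon reads of both classes Gabarapl1 was also close to Cyp11a1, with 45.3% of 331 reads in replicate 1 and 55.3% of 333 in replicate 2.

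**Figure D3:**
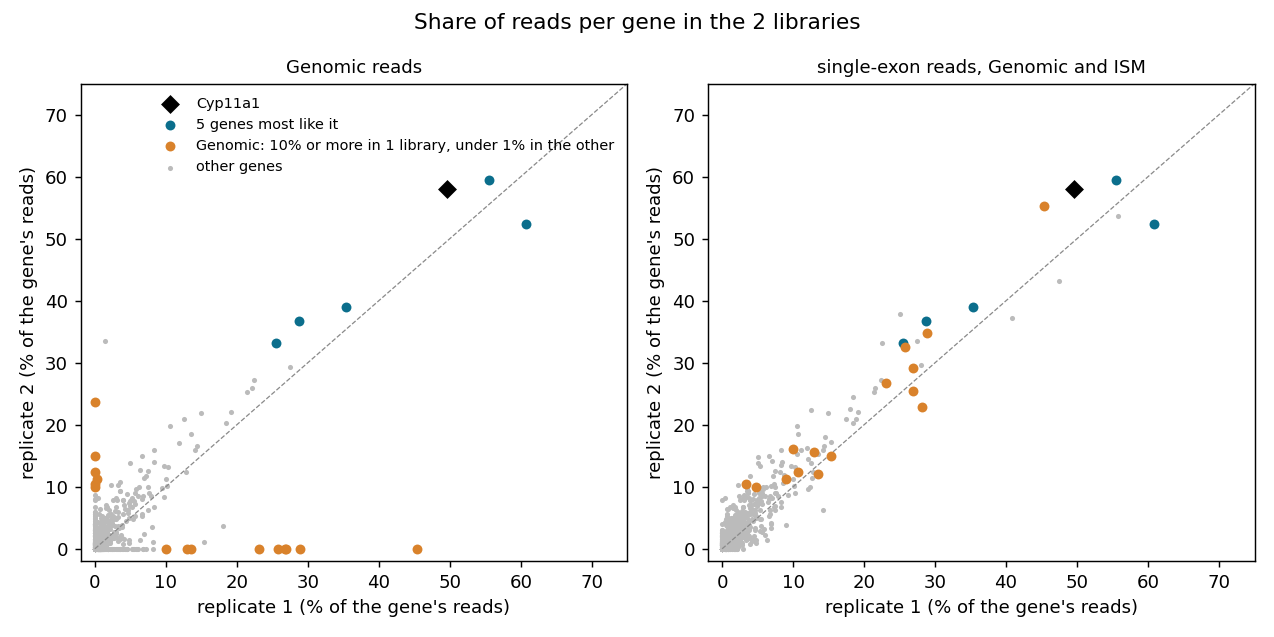
Share of each gene's reads in the Genomic class (left) and in single-exon models of the Genomic and ISM classes (right), in % of the gene's reads, replicate 1 across and replicate 2 up, for 698 genes; the dashed line marks equal shares. Cyp11a1 (diamond) lies at 49.6% and 58.0% in both panels, while the 15 orange genes lie on an axis at left and near the dashed line at right.

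The single-exon share was higher in replicate 2 for Cyp11a1, with a difference of -8.41 percentage points for replicate 1 minus replicate 2. Of the 698 genes, 159 had a higher single-exon share in replicate 1, 466 had a higher one in replicate 2 and 73 were equal, with a median difference of -0.729 points. Only 7 of these genes had a lower difference than Cyp11a1. A difference in points can be larger where the share is high, as it was for Cyp11a1. The median share was also higher in replicate 2, at 2.35% against 1.46% in replicate 1. Replicate 2 also had the lower sum of cortex markers and the higher sums of chromaffin, pancreas, liver and fat markers. Their part in the Cyp11a1 difference was not tested.

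Between the single-exon reads and the complete chain of 9 exons there were few reads. Counted from the 3′ end, chains of the last 8, 7, 6, 5, 4, 3 and 2 exons had 34, 28, 258, 11, 85, 5 and 39 reads in replicate 1. In replicate 2 they had 28, 25, 151, 11, 61, 5 and 66 reads. The chain that begins in exon 4 had the most reads of these 7 in both libraries. The chain that begins in exon 6 came second in replicate 1, and the last 2 exons came second in replicate 2. The model starts of the 6-exon chain lay upstream of exon 4, at 58018884 in replicate 1 and 58018393 in replicate 2, within intron 3 and at the last base of exon 3. The model of the last 2 exons also differed. In replicate 1 it started at 58023994 within intron 5, with a first exon drawn through introns 6 and 7. In replicate 2 it started at 58026085, the first base of exon 8.

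Of the reads in the complete Cyp11a1-201 chain and in these 7 shorter chains from its 3′ end, 5327 of 5787 in replicate 1 had all 9 exons, 92.1% (Wilson 95% interval 91.3 to 92.7). In replicate 2 they were 4002 of 4349, 92.0% (91.2 to 92.8). This share, which leaves out forms with a kept intron, differed by less than the counting error.

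**Figure D4:**
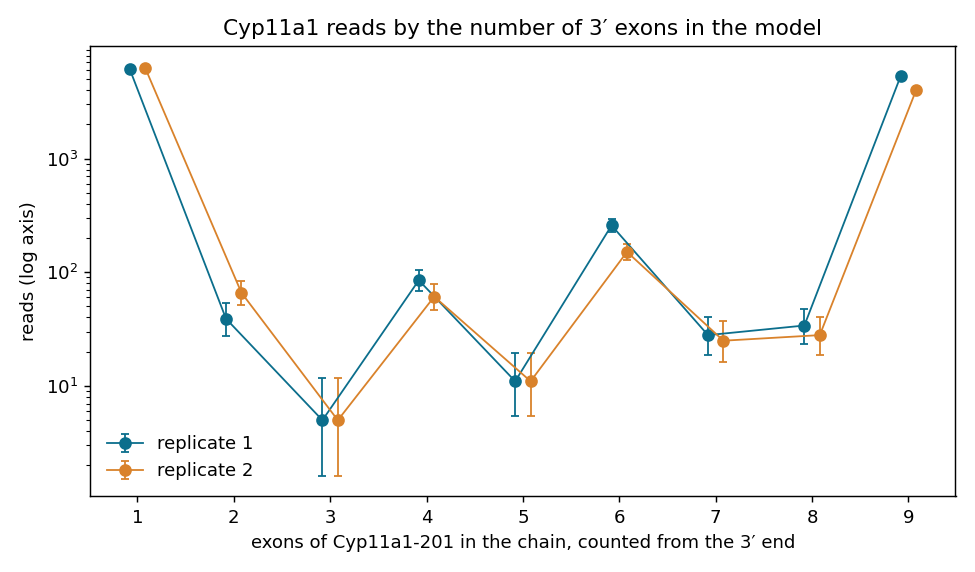
Reads (log axis) of Cyp11a1 models by the number of exons in the model, in replicate 1 and replicate 2, with exact 95% Poisson intervals. Chains are counted from the 3′ end of Cyp11a1-201. The point at 1 exon is the single-exon Genomic model, with 6143 and 6296 reads. Its drawn span touches exons 6 to 9 in replicate 1 and exons 8 and 9 in replicate 2. The point at 9 exons is Cyp11a1-201, and every chain in between had at most 258 reads.

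Chains that begin with the first exon and lack the last junctions were rarer. The first 2 exons alone had 26 reads in replicate 1 and 14 in replicate 2, and the model ended at 58017396 within intron 2, the annotated start of Cyp11a1-203. The first 7 exons had 23 and 9 reads, in a model whose last exon ran from exon 7 to the gene's end through introns 7 and 8. As drawn, that model does not lack the 3′ part.

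Among full-length reads, Cyp11a1-201 dominated. It made up 93.8% of 5680 full-length reads in replicate 1 (Wilson 95% interval 93.1 to 94.4) and 96.0% of 4168 in replicate 2 (95.4 to 96.6), a mean of 94.9 ± 1.58% (SD, n = 2). Replicate 1 held 73 unannotated full-length forms with 353 reads in all and replicate 2 held 51 with 166 reads. Of these, 34 were seen in both, 46.6% of the forms of replicate 1 and 66.7% of those of replicate 2. Forms with a single read numbered 39 and 30. For 6 chains seen in both libraries the class name differed between them, as for the late entry into exon 6, which was NIC in replicate 1 and NNC in replicate 2. With at least 5 reads in each library, 7 forms remained, Cyp11a1-201 and 6 unannotated ones.

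Kept introns had the most reads among the changes in replicate 1, and shifted splice sites in replicate 2. Full-length forms with a kept intron had 174 reads in replicate 1 and 56 in replicate 2, 3.06% and 1.34% of full-length reads. Forms with a shifted splice site had 113 and 69 reads (1.99% and 1.66%), and forms that skipped an exon had 68 and 44 (1.20% and 1.06%).

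Of all spliced Cyp11a1 reads, 199 of 6243 in replicate 1, 3.19% (Wilson 95% interval 2.78 to 3.65), and 60 of 4558 in replicate 2, 1.32% (1.02 to 1.69), held a whole intron between 2 junctions. An intron in that place is certain to be inside the read. Counting every model that covers a whole intron, the single-exon model included, gave 51.8% and 60.0% of all Cyp11a1 reads, so nearly all of that share rests on the span drawn for 1 model per library.

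Intron 7, of 478 bases, was the one most often kept. It was kept in 171 of 6116 reads across it in replicate 1, 2.80% (2.41 to 3.24), and in 51 of 4457 in replicate 2, 1.14% (0.871 to 1.50). Intron 3, of 899 bases, was kept in 45 and 15 reads (0.776% and 0.354%), intron 6, of 283 bases, in 37 and 12 (0.601% and 0.269%), and intron 2, of 1764 bases, in 8 and 3. The order of the 4 introns was the same in both libraries. Introns 4 and 5, of 1212 and 4211 bases, were kept in no read of 6068 and 6078 in replicate 1 or of 4394 and 4405 in replicate 2. Introns 1 and 8 have no junction on their outer side and cannot be judged this way.

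**Figure D5:**
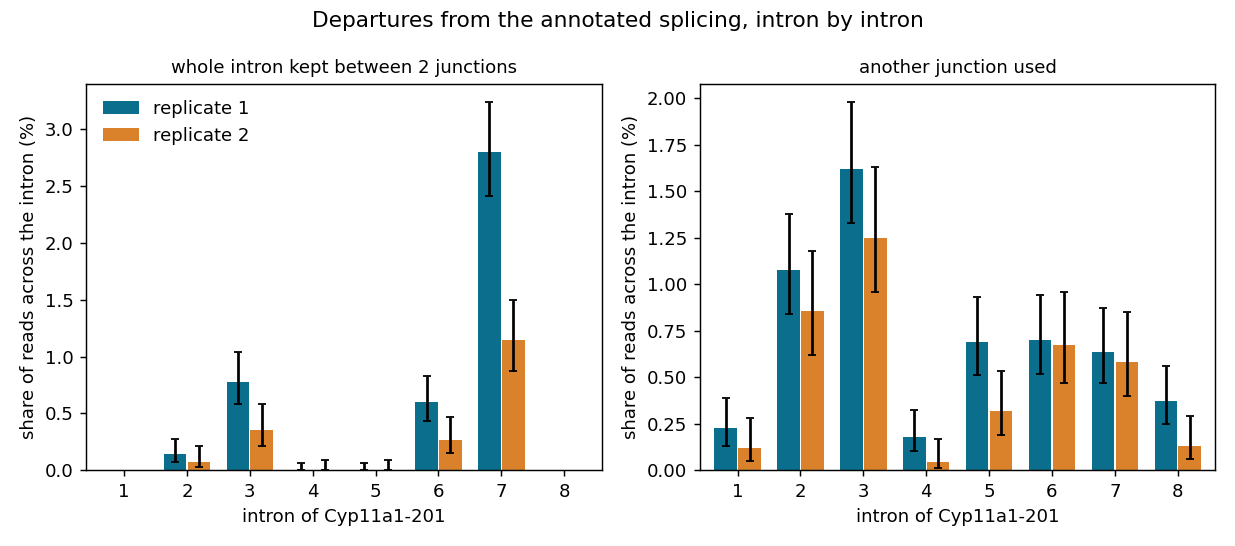
Share of reads across each intron of Cyp11a1-201 (%) that kept the whole intron between 2 junctions (left; introns 1 and 8 cannot be judged) or used another junction (right), in replicate 1 and replicate 2, with Wilson 95% intervals. Intron 7 was kept most often, at 2.80% and 1.14%, and another junction was used most often at intron 3.

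The form that keeps intron 7 alone had 106 reads in replicate 1 and 31 in replicate 2, 1.87% and 0.744% of full-length reads. Introns 6 and 7 were kept together in 20 and 4 reads, and introns 3 and 7 in 15 and 7. Lone intron 3 was kept in 7 and 1 reads, lone intron 6 in 5 and 3, and introns 3, 6 and 7 together in 5 and 2. A 6-exon chain that kept intron 3 and whose last exon ran through introns 7 and 8 to the gene's end had 8 and 1 reads. A kept intron 3 leaves 212 codons from the annotated start to the first stop, against 526 in Cyp11a1-201. The letters of intron 7 were not used here, so its codons were not read.

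Exon 3 was the exon most often skipped, in 52 of 5762 reads across it in replicate 1, 0.902% (0.689 to 1.18), and in 29 of 4211 in replicate 2, 0.689% (0.480 to 0.987). The form that skips it and is otherwise complete had 34 and 26 reads. Its join of exons 2 and 4, shown above, is annotated in Cyp11a1-202, which had no Known read. The loss of 200 bases shifts the reading frame and leaves 190 codons. Exon 7, the shortest with 79 bases, had joins across it in 23 and 14 reads (0.376% and 0.314%). The otherwise complete form without exon 7 had 5 and 10 reads. Loss of exon 7 leaves 441 codons. A form without exon 3 that kept intron 7 had 5 reads, in replicate 1, and a 6-exon chain without exon 3, whose last exon ran through introns 7 and 8 to the gene's end, had 5, also in replicate 1. Joins across exon 6 had 18 and 5 reads (0.297% and 0.114%), and joins across exon 8 had 17 and 5 (0.278% and 0.112%). Exon 5 was skipped in 11 and 2 reads (0.181% and 0.0455%). The counts for exons 6, 7 and 8 include joins of exon 5 to places beyond the gene's end, which are not skips within the gene. The most read of these joins had 7 and 2 reads. The plain join of exons 5 and 7 had 1 read, in replicate 1, and that of exons 7 and 9 had 1, in replicate 2. Exons 2 and 4 were skipped in at most 1 read per library. The lengths of exons 2, 4 and 8, which are 156, 204 and 198 bases, are multiples of 3, and those of the other skipped exons are not.

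The pair of shifted sites in exons 3 and 4 shown above had 23 reads in replicate 1 and 11 in replicate 2 as a complete form. The shifts remove 108 bases, keep the reading frame and leave 490 codons with the annotated stop. The early end of exon 3 joined to the annotated start of exon 4 had 5 and 3 reads as a complete form, and leaves 256 codons. An end of exon 6 that lies 4 bases late had 10 and 11 reads as a complete form. The pair led the shifted sites in replicate 1, and both forms had the same number of reads in replicate 2.

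Late entry into exon 6 by 18 bases had 8 and 4 reads and leaves 520 codons in frame, and late entry into exon 8 by 12 bases had 7 and 3 reads and leaves 522. Late entry into exon 2 by 4 bases had 8 and 2 reads and leaves 149 codons. A form that joins exon 5 to a place 1277 bases beyond the gene's end had 6 and 1 reads. Of the 68 junctions outside Cyp11a1-201, 29 were seen in both libraries. All 68 together carried 0.463% of all junction reads in replicate 1 and 0.357% in replicate 2. Both ends of the intron could be read from annotated transcript sequences for 13 of the 68, of which 12 began with GT and ended with AG.

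Nearly all unannotated full-length reads, 346 of 353 in replicate 1 and 161 of 166 in replicate 2, belonged to models that start at 58014997, the annotated start of Cyp11a1-204. It lies 326 bases downstream of the Cyp11a1-201 start and 42 bases upstream of the start codon. No unannotated full-length model started at the Cyp11a1-201 start. A Known read takes the annotated start of its transcript, so the 2 starts cannot be compared as measured starts.

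The use of each form within the full-length reads was compared between the 2 libraries over all genes. A two-sided Fisher's exact test of 2054 forms called 9, or 0.438%, where a call needs a difference of at least 5 percentage points besides an adjusted p under 0.05, and none of the 11 Cyp11a1 forms tested was among them. At any size of difference 20 forms, 0.974%, passed the adjusted p, and 2 of these were Cyp11a1 forms. Cyp11a1 ranked 2 by full-length reads, with 5680 and 4168 where a gene needed 50 in each library. Smaller differences can pass with so many reads, so these 2 forms do not show unusual use of forms. Cyp11a1-201 was lower in replicate 1 by -2.23 percentage points (Fisher's exact test with Benjamini-Hochberg adjustment, adjusted p = 0.000143). The form that keeps intron 7 was higher in replicate 1 by 1.12 points (adjusted p = 0.000225). These shares are parts of the same total, and the test compares these libraries and counts reads as independent. The form with introns 6 and 7, with 20 and 4 reads, had an adjusted p of 0.324, and the other 8 forms had adjusted p of 0.717 or more.

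The rest of the steroid pathway was read beside Cyp11a1 from a list of 30 genes, of which 27 had reads and 22 had the 10 reads needed for a test. Over all genes, 257 of 8135, or 3.16%, were called between the libraries by Fisher's exact test (adjusted p under 0.05 and at least 2-fold after adding 1 CPM). Of the 22 steroid genes 1 was called. It was Nr5a1, the nuclear receptor that drives transcription of steroid enzymes, with 274 reads in replicate 1 and 129 in replicate 2, 2.17 times as high in replicate 1 (adjusted p = 5.35e-12). By full-length reads 2.96% of genes were called and none of the 22, and Nr5a1 had 178 and 92 reads. The median log2 ratio of replicate 1 over replicate 2 was 0.34 for the list, with 16 of 22 genes above 0, and 0.03 for all genes. Cyp11a1 itself had a log2 ratio of 0.22. The chromaffin marker sum ran the other way, as given above, and its part in the list's values was not tested.

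The partners of the enzyme had the following levels. Star stood at 11197 CPM in replicate 1 and 7504 CPM in replicate 2. Fdx1 and Fdxr, which pass electrons to Cyp11a1, stood at 2674 and 2000 CPM and at 1375 and 1084 CPM. Of the enzymes after it, Hsd3b1 stood at 6551 and 5804 CPM, Cyp21a1, the 21-hydroxylase, at 14674 and 11537 CPM, and Cyp11b1 at 5437 and 4861 CPM. Only 47 of the 2964 Hsd3b1 reads in replicate 1 and 45 of 2688 in replicate 2 were full-length. Scarb1, the receptor that takes up lipoprotein cholesterol, stood at 3815 and 3004 CPM, and Akr1b7, an aldo-keto reductase of the cortex, at 7643 and 5355 CPM. All of these were higher in replicate 1, by less than 2-fold.

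Mrap, the accessory protein of the corticotropin receptor, had 357 reads in replicate 1 and 189 in replicate 2. Cyp11b2, which makes aldosterone, had 222 and 127 reads, and Hsd3b6 had 79 and 42. Srd5a2, a steroid 5-alpha-reductase, had 1404 and 1337 reads, Tspo, a cholesterol-binding protein of the outer mitochondrial membrane, 366 and 420, Cyb5a 127 and 142, and Cyb5b 124 and 127. Por, the electron donor of microsomal P450 enzymes, had 152 and 98 reads, Hsd17b12 47 and 61, and Hsd11b1, which regenerates active glucocorticoid, 42 and 81.

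A Genomic share as high as that of Cyp11a1 was not found across the pathway. Over the 19 listed genes with at least 100 reads in all, the share ran from 0 to 12.8% in replicate 1, with a median of 1.07%, and from 0 to 23.6% in replicate 2, with a median of 3.70%. All 19 lay below Cyp11a1 in both libraries, which is a description, since the gene was chosen in part for this share. The list's medians were above those of all genes with at least 100 reads in each library, 0.356% and 0.516%. In replicate 2 the list's median was also above the upper quartile of those genes, 3.07%. The highest were Nr5a1 in replicate 1 and Cyb5b in replicate 2. By single-exon reads of both classes the highest was Cyb5b in both libraries, at 28.2% and 22.8%. On that measure the list's medians were 2.73% and 4.76%, above those of all these genes, 1.46% and 2.35%. They were below the upper quartiles, 3.57% and 5.23%, so the place above the quartile in replicate 2 depends on the class name.

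Reads on the opposite strand within the Cyp11a1 locus numbered 3 in replicate 1 and 3 in replicate 2, at the floor of 3 reads.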

How the data were processed

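Long-read RNA sequencing of 2 adrenal gland libraries was analysed from the deposited tables. The authors deposited whole read counts per transcript model with no normalization, and a model annotation per library. Per the file headers these refer to the mm10 genome and GENCODE M21. The aligner, like the TALON version, is not given in the sources used here. Models were joined to their exons by transcript identifier. Unannotated forms were matched between libraries by intron chain. Reads on spike-in sequences, 1.21% and 3.32% of the tables, were left out of totals. Genes without an annotated identifier, 4.30% and 6.17% of endogenous reads, count in the totals but were not tested, since their identifiers differ between libraries. Exon and junction letters were read from the GENCODE M21 transcript sequences.

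Shares carry Wilson 95% intervals, and ratios of counts carry exact conditional ones. Both cover counting error only, since reads without molecular identifiers are not independent molecules. Fisher's exact tests (scipy 1.17.1) covered all annotated genes with at least 10 reads summed, and all forms with at least 10 reads summed in genes where each library had 50 or more full-length reads. They were adjusted by Benjamini-Hochberg. edgeR 4.0.16 supplied TMM factors (1.02 and 0.977), and DESeq2 1.42.0 supplied size factors, both used as other scales only. Alternatives changed the totals, the minimum reads, the classes counted and the definition of a kept intron.

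Named were Cyp11a1 models with at least 5 reads in either library, steroid genes with at least 100 reads summed, the 5 genes most like Cyp11a1 in Genomic share and the 5 with the highest share among genes of at least 1000 reads. The gene, the lists and the tests were chosen with earlier results of these data known.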

Additional observations from a re-analysis of the deposited data

How the results depend on the processing

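Of 22 alternatives that kept both libraries, 17 moved the result by less than 1 SD or, for a count, by no more than 1.5 times. The share of Cyp11a1 reads that cover a whole intron, 55.9% on average, fell to 1.08% when the intron had to lie between 2 junctions, a definition added after seeing the data that removes the single-exon models. The share of Cyp11a1-201, 94.9%, was 86.5% with ISM reads in the total. The number of splice forms in both libraries, 7 with at least 5 reads in each, was 35 with at least 1 read and 18 with at least 2. The steroid genes called, 1 over all classes, were 0 over full-length reads.

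With either library alone, the level over all classes ranged from 23455 to 27394 CPM, the full-length level from 9000 to 12554 CPM, the Genomic share from 49.6% to 58.0%, the whole-intron share from 51.8% to 60.0% and the share of Cyp11a1-201 from 93.8% to 96.0%. No paired analysis was possible because the study has 1 group. No test of variation between animals can be had from 2 libraries of 1 group. A count of 0 allowed up to 6.63 CPM in replicate 1 and 6.48 CPM in replicate 2.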
